A study of Canis lupus familiaris with 18 samples.

Results

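Compact *H3K27ac* regions shared by all dogs are short stretches of the genome at which every dog of the study had an *H3K27ac* peak. To find them, the peaks of the 6 *H3K27ac* lists on CFA1 to CFA38 were merged where they overlapped or touched, and merged regions were kept if all 6 dogs had a peak in them and if they were shorter than 2 kb. The members were thus chosen by measured values, the presence and merged width of *H3K27ac* peaks, and these are described below without a test. The rule kept 8859 of 175766 merged regions (5.04%), and of 47984 regions with a peak in all 6 dogs (18.5%). The other 39125 of these were at least 2 kb long and are called longer regions. A further 107524 regions were below 2 kb but had a peak in 1 to 5 dogs.

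The lists come from chromatin immunoprecipitation sequencing (*ChIP-seq*) of the pons, a part of the brainstem, of 6 male dogs aged 12 to 16 years. In 3 dogs, labelled ins and called ancestral here, 1 copy of *GTF2I* carries a transposable element (TE) insertion, so they are heterozygous. In the 3 derived dogs, labelled noins, neither copy carries it. Each dog gave 1 *H3K27ac* and 1 *E2F1* list, called in that dog alone from bulk frozen tissue, so no cell type can be assigned. TE genotype and any other difference between the 2 sets of 3 dogs cannot be told apart.

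H3K27ac is the acetylation of a lysine in the tail of histone H3, and it marks promoters and enhancers in use, while long acetylated stretches are often clusters of such elements. E2F1 is a transcription factor best known for binding promoters of genes of the cell cycle, and it is also present in neurons that no longer divide. The pons carries relay neurons between the cortex and the cerebellum, many fibre tracts, and glia. A transcription factor gives a narrow peak at its binding site, whereas the acetylation spreads over the neighbouring nucleosomes. All positions are on CanFam3.1, and no gene is named for a region because no annotation of that build was used here.

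The dogs' *H3K27ac* lists held 96561 to 138141 peaks on the autosomes, and 6.42 to 9.18% of them lay in compact regions. The *E2F1* lists held 18947 to 63306 peaks below a q value of 0.0005, and the number of reads behind a list is not given in the lists. In every *H3K27ac* list the shortest gap between neighbouring peaks, 1049 to 1121 bp, was close to 4 times the narrowest peak of that list, 262 to 280 bp. Peaks of the same dog closer than this do not occur in the lists, and widths and gaps below are read with that in view.

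The compact regions were 321 bp to just under 2 kb wide, with a median of 1381 bp and quartiles of 987 and 1705 bp. Only 248 (2.80%) were below 500 bp, 2032 (22.9%) were 500 to below 1000 bp, 2920 (33.0%) were 1000 to below 1500 bp and 3659 (41.3%) were 1500 to below 2000 bp. The width distribution ran smoothly across the limit of 2 kb, as 764 regions of all 6 dogs lay less than 100 bp below it and 752 lay at it or less than 100 bp above it. At the limit itself, 9 regions were 1 bp narrower and 13 measured exactly 2000 bp. The compact regions made up 4.01% of all bases in regions shared by the 6 dogs.

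**Figure D1:**
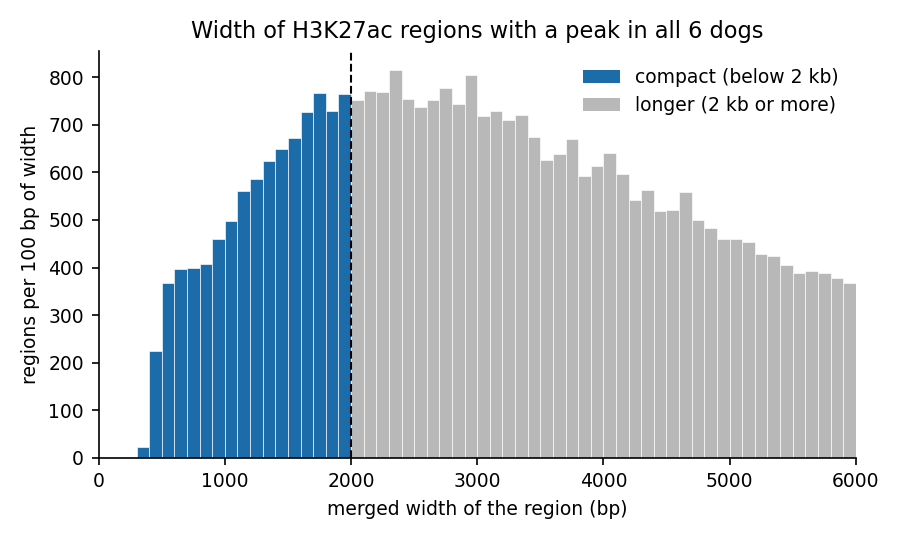
Number of H3K27ac regions with a peak in all 6 dogs (vertical axis, regions per 100 bp of width) against their merged width (horizontal axis, bp), with the compact regions in blue and regions from 2000 bp in grey. The bars on both sides of the dashed line at 2 kb are of similar height, 764 and 752 regions.

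On each side of the limit 1 region is described, the first by chromosome and start among regions of equal width. Of the 9 that were 1 bp narrower than 2 kb, this was chr1:105132283-105134281. The dogs' own peaks there were 1832, 1622 and 1697 bp wide in the ancestral and 1497, 1901 and 1744 bp wide in the derived dogs. Of the 13 that measured 2000 bp, it was chr1:93040229-93042228, and its peaks were 882, 675, 892, 2000, 1726 and 778 bp wide in the same order. The former region was wide in every dog. In the latter, derived replicate 1 alone spanned the whole merged width. These are single examples and do not describe the other regions at the limit.

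A single peak per dog was the rule in compact regions. In 8817 of them (99.5%) each dog had exactly 1 peak, and 42 (0.474%) had 2 or more peaks in some dog. Of the longer regions, 16538 (42.3%) had exactly 1 peak per dog. With gaps of at least 1049 bp and peaks of at least 262 bp, no region below 1500 bp could hold 2 peaks of a dog. The width limit thus sets much of this difference, which is not a result about the regions.

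The edges agreed closely in some compact regions and poorly in others. The starts of the 6 dogs' peaks ranged over a median of 223 bp (quartiles 113 and 595 bp), and the ends ranged over a median of 234 bp (quartiles 115 and 599 bp). Both ranges were at most 100 bp in 516 regions (5.82%), at most 200 bp in 2049 (23.1%) and at most 500 bp in 4176 (47.1%). At least 1 of the ranges exceeded 1000 bp in 1527 regions (17.2%). The 2 sides behaved alike, since the start range was the larger in 4412 regions (49.8%).

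**Figure D2:**
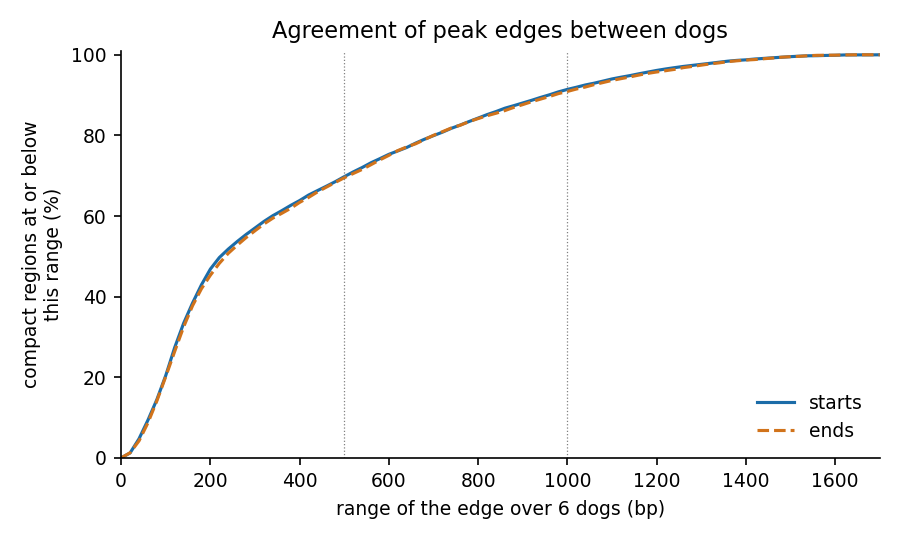
Cumulative percentage of the 8859 compact regions (vertical axis) whose peak starts or ends ranged over no more than the distance on the horizontal axis (bp) in the 6 dogs. The curves for starts (solid) and ends (dashed) lie on each other and rise steeply up to about 200 bp, with medians of 223 and 234 bp and a long upper part.

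The bases under peaks of all 6 dogs formed a shared core. Its median length was 441 bp, or 41.1% of the merged width. In 904 regions (10.2%) the core took up at least 80% of the width. In 212 regions (2.39%) no base lay under a peak in all 6 dogs, so that the region was shared only through the chaining of partly overlapping peaks.

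No dog set the edges of the compact regions alone. The dog with the leftmost start was derived replicate 2 in 24.3% of regions and ancestral replicate 3 in 12.8%, with the other dogs between. Derived replicate 2 also had the longest peak most often (21.9%), while ancestral replicate 2 had the shortest most often (22.5%). Taking dogs pair by pair, the median difference between starts was 59 to 91 bp over the 15 pairs. It was 59 to 81 bp for the 6 pairs of the same genotype and 60 to 91 bp for the 9 pairs of different genotype, so these ranges overlapped nearly whole. Across regions, the fold enrichment of the peaks correlated between dogs with Spearman's rho of 0.577 to 0.696 and their width with 0.405 to 0.575 (15 pairs, each over 8859 regions, which are not independent replicates).

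The tightest regions were also among the strongly enriched ones. In chr9:725774-727626 (1853 bp) the starts ranged over 7 bp and the ends over 11 bp. There the fold enrichment over the local background was 20.6, 13.8 and 20.3 in the ancestral and 9.69, 16.6 and 11.6 in the derived dogs. The next in order were chr34:4048745-4049097 (353 bp, ranges of 8 and 15 bp) and chr12:65549815-65550361 (547 bp, ranges of 13 and 11 bp), and all 3 held an *E2F1* peak in 5 dogs. The CFA34 region was also second by its lowest *H3K27ac* fold percentile within a list, 99.96, and chr4:54955423-54956532, with 99.94, was the third.

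The regions with the poorest agreement looked different. In chr11:20072973-20074913 (1941 bp) the starts ranged over 1578 bp and the ends over 1523 bp, and there was no shared core. The peaks were 363, 330 and 472 bp wide in the ancestral dogs and 1802, 484 and 1306 bp in the derived dogs. In chr10:451036-453026 and chr6:54102533-54104441 the ranges were 1610 and 1468 bp, and 1462 and 1462 bp, again with no shared core. *E2F1* peaks overlapped only the CFA10 region, in 2 dogs.

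At the short end stood chr6:39931577-39931897 (321 bp), chr31:37688313-37688635 (323 bp) and chr9:315863-316197 (335 bp). Their starts ranged over 27, 23 and 29 bp, and their widths lie close to the narrowest peaks that the lists contain. *E2F1* peaks overlapped these regions in 6, 3 and 2 dogs. On CFA6 the *E2F1* fold was 10.9, 19.4 and 41.0 in the ancestral and 8.69, 7.39 and 12.1 in the derived dogs.

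The *H3K27ac* peaks in compact regions were of medium to high enrichment within their own lists. The median peak width in compact regions was 920, 843 and 874 bp in the ancestral and 900, 884 and 930 bp in the derived dogs. Where a dog had several peaks in a region, the highest fold was taken. The median fold was 3.58 to 3.85, against 3.92 to 4.24 in longer regions. Exactly 1 peak per dog was found in 99.5% of compact but 42.3% of longer regions. Fold and its percentile are therefore not like for like between these classes. As a percentile of the dog's own list, the median fold was at 76.4, 62.5 and 66.7 in the ancestral and 72.1, 65.6 and 70.7 in the derived dogs. The same percentile was 71.2 to 78.9 in longer regions and 26.4 to 28.9 in regions below 2 kb found in fewer dogs. Presence in all 6 dogs is itself part of the rule, so these levels are given with no test.

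Many compact regions lay beside a longer one. The median gap to the nearest longer region was 6885 bp (quartiles 1825 and 26438.5 bp). It was below 5 kb for 3881 regions (43.8%), below 20 kb for 6206 (70.1%) and below 100 kb for 8205 (92.6%). For comparison, 26.5% of the regions below 2 kb found in 1 to 5 dogs, and 58.4% of the longer regions themselves, had a longer region within 5 kb. A longer region stood within 5 kb on both sides of 1020 compact regions (11.5%) and on exactly 1 side of 2861 (32.3%). For 2448 (27.6%) the nearest region of all 6 dogs was another compact one.

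**Figure D3:**
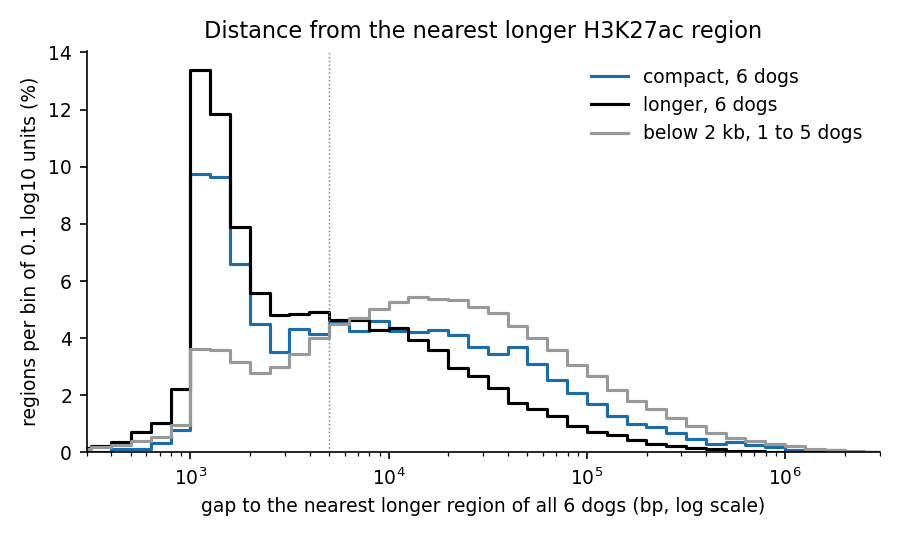
Percentage of regions (vertical axis, per bin of 0.1 log10 units) by the gap to the nearest longer region of all 6 dogs (horizontal axis, bp, log scale), for compact regions (blue), longer regions (black) and regions below 2 kb of 1 to 5 dogs (grey). Gaps pile up just above 1 kb, near the shortest gap the lists contain, and 43.8% of the compact, 58.4% of the longer and 26.5% of the grey regions lie left of the dotted line at 5 kb.

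Few compact regions stood alone when the peaks of any dog were counted. The median gap to the nearest merged region of any dog was 1582 bp. The gap was at least 5 kb for 1085 regions (12.2%), at least 20 kb for 184 (2.08%) and at least 100 kb for 15 (0.169%). The most isolated one was chr17:41700619-41701376 (758 bp), with no other peak of any dog within 286502 bp. Its fold was 8.38, 8.26 and 11.7 in the ancestral and 13.5, 5.68 and 9.70 in the derived dogs, so it was well above the medians of the lists throughout. The next were chr22:38700698-38701932 and chr34:40013272-40014628, with gaps of 283970 and 234940 bp. No dog had an *E2F1* peak at any of these 3.

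Compact regions occurred on all 38 autosomes, from 70 on CFA38 to 520 on CFA1. Their density ran from 2.64 per Mb on CFA19 to 5.13 per Mb on CFA36, taking the span between the outermost regions. Their share among regions of all 6 dogs varied more, from 11.6% on CFA24 to 30.8% on CFA36 with a median of 19.0%. That share was lower on chromosomes with more regions of all 6 dogs per Mb (Spearman's rho -0.709 over 38 chromosomes, given as a description because the region count enters both measures).

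*E2F1* peaks, which the rule did not use, overlapped compact regions less often than longer ones in every dog. The share of compact regions overlapped by at least 1 bp was 7.86, 14.0 and 15.3% in the ancestral and 3.68, 18.5 and 8.31% in the derived dogs, or 11.3% ± 5.54 (SD, n = 6). In longer regions it was 23.3, 32.4 and 35.0% and 12.8, 40.6 and 23.9%, or 28.0% ± 9.97. The dogs stood in the same order as the number of *E2F1* peaks in their lists, lowest in derived replicate 1 and highest in derived replicate 2. The difference was -16.7 percentage points ± 4.50, lower in compact regions in 6 of 6 dogs (exact two-sided sign-flip test over 64 assignments, p = 0.03125, the smallest p it allows, and 0.0382 after Benjamini-Hochberg adjustment over 11 such tests, as for each raw p of 0.03125 below). With the same number of *E2F1* peaks taken from each list the difference was -10.7 points, and with *E2F1* q below 1e-10 it was -2.67 points (exact p = 0.03125 for both).

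Longer regions offer more bases to overlap, so the regions were also compared at a single point and per base. An *E2F1* peak covered the midpoint of 1.93, 3.93 and 3.86% of the compact regions in the ancestral and 0.869, 5.12 and 1.98% in the derived dogs. The mean was 2.95% ± 1.60, and 3.03% ± 1.75 for longer regions. Their difference, -0.0846 points ± 0.235, was within the spread between dogs and negative in 3 of 6 (exact sign-flip test, p = 0.469). With a width limit of 1 kb instead of 2 kb the midpoint share was higher in compact regions by 0.969 points (exact p = 0.03125).

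Counted per base, *E2F1* summits were denser in compact regions, by an amount that depended on the settings. There were 64.8 ± 30.4 summits per Mb in compact and 58.8 ± 29.9 in longer regions (SD, n = 6), a difference of 5.99 ± 5.34 that was positive in 6 of 6 dogs (exact sign-flip test, p = 0.03125). This call ended when all *E2F1* peaks were used (3.29 per Mb, exact p = 0.438) or the limit was 3 kb (1.06 per Mb, exact p = 0.531). The difference was larger, 27.1 per Mb, with a limit of 1 kb and 42.5 per Mb with *H3K27ac* q below 1e-05 (exact p = 0.03125 for both). With 1 dog left out in turn and the regions rebuilt, the difference was 1.77 to 5.15 per Mb, lowest without ancestral replicate 2. The exact sign-flip p was then 0.0625 to 0.562. As 0.0625 is the smallest p that 5 dogs allow, no call could pass there.

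**Figure D4:**
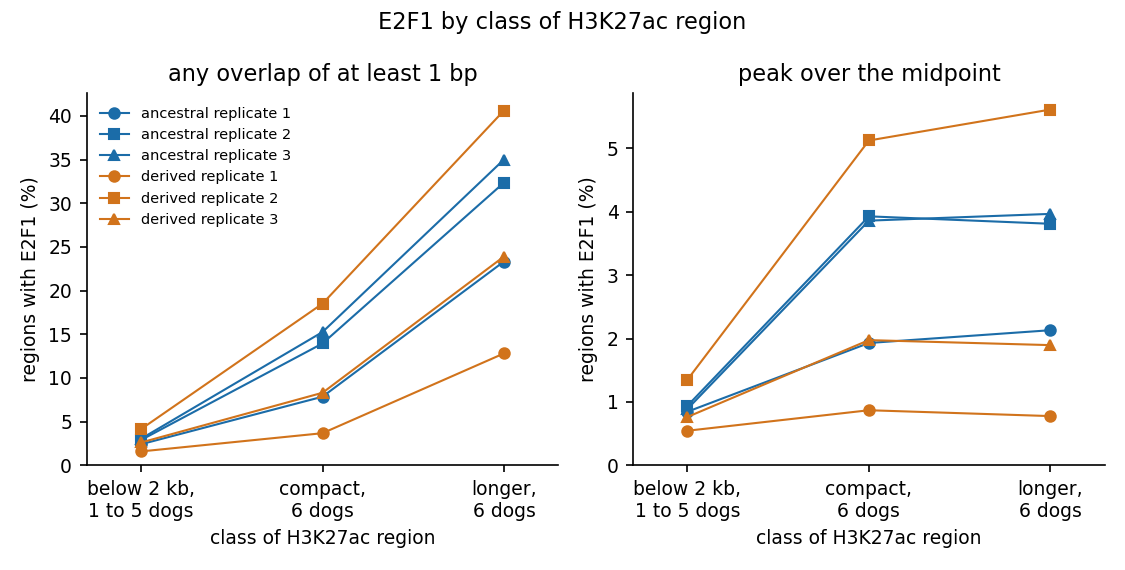
Percentage of H3K27ac regions with E2F1 (vertical axes) in 3 classes of region (horizontal axes), by any overlap of at least 1 bp (left) and by a peak over the region's midpoint (right), with 1 line per dog, ancestral in blue and derived in orange. On the left every line rises from compact to longer regions, whereas on the right compact and longer regions lie close together, with means of 2.95 and 3.03%.

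Among regions below 2 kb, *E2F1* overlap was highest where all 6 dogs had an *H3K27ac* peak. It was 2.01% of regions found in 1 dog, 3.01, 4.05, 4.76 and 5.75% of those found in 2, 3, 4 and 5 dogs, and 11.3% of the compact regions (means of 6 dogs). Over all regions found in 1 to 5 dogs it was 2.42, 2.90 and 3.05% in the ancestral and 1.59, 4.15 and 2.62% in the derived dogs. Every dog was therefore higher in compact regions, by 8.47 points ± 4.75 (exact sign-flip test, p = 0.03125, 0.0382 adjusted over the 11 tests). With equal *E2F1* lists the difference was 5.44 points, and with *E2F1* q below 1e-10 it was 2.08 points.

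The step was seen within widths and against close neighbours in this ordering too, but the classes were not matched for the level of *H3K27ac*. The dogs' median fold percentile was 62.5 to 76.4 in compact regions and 26.4 to 28.9 in regions below 2 kb of fewer dogs. Whether the step remains at equal *H3K27ac* level was not tested. Compact regions exceeded regions of 5 dogs by 5.51 points ± 3.22, in 6 of 6 dogs (exact sign-flip test, p = 0.03125). They exceeded regions of fewer dogs in which the dog itself had an *H3K27ac* peak by 6.80 points ± 3.37, again in 6 of 6 (exact p = 0.03125). Within the 4 width classes in steps of 500 bp, compact regions had means of 10.6, 10.4, 11.0 and 12.0%, and regions of 5 dogs had 5.20, 4.40, 5.65 and 6.85%. Between compact regions of 1500 bp or more and those below 1000 bp the difference was 1.59 points ± 0.429 (exact p = 0.03125). It was 5.59 points with all *E2F1* peaks, 5.39 with *H3K27ac* q below 1e-05 and 3.67 with at least 0.5 of the *E2F1* peak inside (exact p = 0.03125 for each), and -0.109 points with *E2F1* q below 1e-10 (exact p = 0.469) and 0.296 with equal *E2F1* lists (exact p = 0.406).

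**Figure D5:**
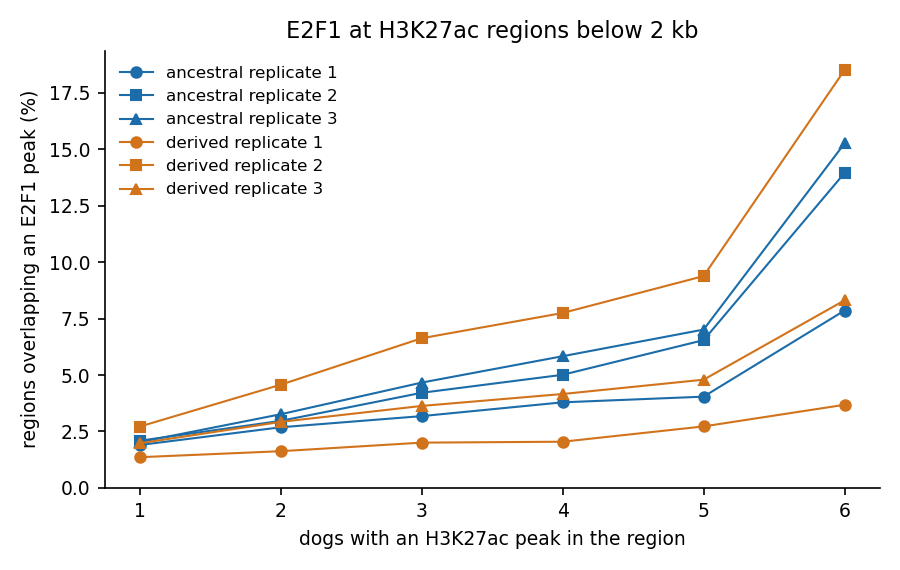
Percentage of H3K27ac regions below 2 kb that overlapped an E2F1 peak (vertical axis) against the number of dogs with an H3K27ac peak in the region (horizontal axis), with 1 line per dog, ancestral in blue and derived in orange. All 6 lines rise from 5 to 6 dogs, from a mean of 5.75% to a mean of 11.3%, and the vertical order of the lines follows the length of the E2F1 lists at 6 dogs.

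*E2F1* overlap went with the level of *H3K27ac*. The compact regions were divided into 4 groups of equal size by the lowest of the 6 dogs' *H3K27ac* fold percentiles. From the lowest to the highest group *E2F1* overlapped 6.90, 7.60, 10.1 and 20.4% of the regions (means of 6 dogs). In the highest group the dogs ranged from 4.92 to 33.3% and in the lowest from 3.34 to 11.4%. The difference between these groups was 13.5 points ± 7.79, positive in 6 of 6 dogs (exact sign-flip test, p = 0.03125). Grouped by the larger edge range instead, in 4 groups from the tightest to the loosest, *E2F1* overlapped 13.8, 11.0, 9.61 and 10.6% of the regions. This was not tested, derived replicate 1 went the other way (3.38% in the tightest and 3.88% in the loosest group), and the median widths of these groups were 854 and 1744 bp.

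Between compact regions near to and far from a longer region, *E2F1* overlap had no uniform direction of difference. The mean difference was smaller than the spread between dogs. *E2F1* overlapped 11.6% ± 6.01 of the compact regions within 5 kb of a longer region and 11.3% ± 4.96 of those at least 20 kb away (difference 0.326 points ± 1.68, higher near in 2 of 6 dogs, exact sign-flip test, p = 0.938). *E2F1* in the longer neighbour went with *E2F1* in the compact region. Among the 3881 near regions, the share with *E2F1* was 11.2, 18.6 and 20.3% in the ancestral and 5.59, 29.2 and 12.0% in the derived dogs when that dog had an *E2F1* peak in the neighbour. It was 6.82, 11.7 and 12.5% and 3.44, 14.9 and 8.01% when it had none. The difference was 6.61 points ± 4.31, positive in 6 of 6 dogs (exact sign-flip test, p = 0.03125), and neighbours with and without *E2F1* were not matched for length. A single *E2F1* peak that reached both the compact region and its neighbour counted for each of them. Under the rule used above that asks for a minimum share of the *E2F1* peak inside, the difference was 3.78 points (exact p = 0.03125). Whether the difference remains without peaks that reach both regions was not tested.

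Within compact regions the *E2F1* summits were spread over the whole width. Divided into 3 equal parts, the central part held 28.7, 33.1 and 34.1% of the summits in the ancestral and 32.5, 33.0 and 34.9% in the derived dogs, or 32.7% ± 2.15. In longer regions it held 36.6% ± 0.916. The difference of -3.89 points ± 2.03 was negative in 6 of 6 dogs (exact sign-flip test, p = 0.03125), and with a width limit of 3 kb it was 0.501 points (exact p = 0.406). Summits in compact regions lay a median of 310 to 340.25 bp from the region's centre.

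Most compact regions had no *E2F1* peak, and those that had one seldom had it in every dog. An *E2F1* peak was present in no dog at 5538 regions (62.5%), in 1 dog at 1872 (21.1%), in 2 at 777 (8.77%), in 3 at 327 (3.69%), in 4 at 188 (2.12%), in 5 at 115 (1.30%) and in all 6 at 42 (0.474%). The 3321 with *E2F1* in at least 1 dog were 37.5% of the compact regions, compared with 29.1% of all merged regions. By class, the share was 67.1% in longer regions and 13.4% in regions below 2 kb of 1 to 5 dogs. The 42 with *E2F1* in all 6 compare with 0.796% of all merged regions, a set that includes the long ones. That share was 3.28% in longer regions and 0.0474% in regions below 2 kb of 1 to 5 dogs. A missing peak is a call below the threshold in that list and does not show that E2F1 was absent.

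The strongest of these 42 stood far from the other compact regions in enrichment. At chr5:82360284-82360907 (624 bp) the *E2F1* fold was 630, 8895 and 14870 in the ancestral and 5792, 12115 and 22211 in the derived dogs. The *H3K27ac* fold there was 26.7, 478 and 183 in the ancestral and 225, 98.6 and 44.7 in the derived dogs, and this region also ranked first by *H3K27ac* fold percentile. At chr20:57395306-57395776 (471 bp) the *E2F1* fold was 412 to 14020, and at chr8:66603536-66604062 (527 bp) it was 142 to 486. In these 3 regions the *E2F1* and the *H3K27ac* peak of a dog started within 22, 16 and 5 bp of each other in all 6 dogs, in the order CFA5, CFA20 and CFA8. Their ends lay 44 to 186 bp apart on CFA5, 7 to 105 bp on CFA20 and 0 to 45 bp on CFA8. On CFA8 both peaks of ancestral replicate 1 ran over almost the same bases, from 66603536 to 66603999 for *H3K27ac* and from 66603535 to 66604004 for *E2F1*. Each dog's list had exactly 3 *E2F1* peaks above 100-fold at compact regions. Removing all *E2F1* peaks above 100-fold from the lists, wherever they lay, left every *E2F1* comparison above on its side of the threshold. Signal of the input libraries at these positions was not analysed here.

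The next in rank were modest in fold. At chr6:61470696-61472218 (1523 bp) the *E2F1* fold was 3.11, 3.90 and 5.36 in the ancestral and 6.70, 4.02 and 5.18 in the derived dogs. At chr15:8511684-8512373 (690 bp) it was 5.39, 5.44 and 4.90, and 2.10, 3.84 and 4.84. Both were high in their *E2F1* lists by q. Their *H3K27ac* fold percentile varied widely between dogs, from 0.0361 to 52.9 on CFA6 and from 0.0289 to 79.4 on CFA15. The *E2F1* and *H3K27ac* peaks of a dog started 0 to 3 bp apart on CFA15, so close starts were not limited to the highest folds. On CFA6 the starts lay 1221 to 1322 bp apart. In ancestral replicates 2 and 3 and derived replicate 2, the *E2F1* peak on CFA6 lay wholly outside the dog's own *H3K27ac* peak. It overlapped only the merged region there.

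The TE genotype was compared over the compact regions as a set. *E2F1* overlap was 12.4% ± 3.95 in ancestral and 10.2% ± 7.59 in derived dogs (SD, n = 3 each). The difference of -2.19 points was smaller than either spread (exact two-sided permutation test, p = 0.8, where 3 dogs against 3 cannot give a p below 0.1). The *H3K27ac* measures come from the peaks that chose the regions and are given as a description. The median *H3K27ac* peak width was 879 bp ± 38.7 in ancestral and 905 bp ± 23.4 in derived dogs, and the values of the genotypes overlapped. The median fold percentile was 68.5 ± 7.12 and 69.5 ± 3.40, and peaks covered 70.5% ± 2.27 and 72.2% ± 1.13 of the compact bases, again with overlap. Without ancestral replicate 1 the derived dogs were higher by 52.7 bp in width and by 3.27 points in coverage, and without ancestral replicate 2 by 7.17 bp and 0.674 points.

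Region by region, the genotypes seldom separated. The summed peak length of all 3 derived dogs exceeded that of all 3 ancestral dogs in 411 compact regions (4.64%), against 5.33% of all regions shared by the 6 dogs. The reverse held in 270 (3.05%), against 2.39%. An *E2F1* peak was present in all 3 ancestral and no derived dog at 17 compact regions (0.192%), against 0.118% of all merged regions, and in all 3 derived and no ancestral dog at 5 (0.0564%), against 0.0614%. These shares lie near their backgrounds, and no single region can pass a test with 3 dogs against 3.

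*GTF2I*, the gene with the TE, encodes a general transcription factor and lies on CFA6. No compact region lay between its first and last exon, where there were 5 longer regions and 7 regions below 2 kb found in fewer dogs. The compact region nearest to the gene, looked up after this was seen, was chr6:5717602-5719036 (1435 bp), 8628 bp away from the gene's exons. Its peaks were 1263, 1417 and 1229 bp wide in the ancestral and 905, 1036 and 1006 bp in the derived dogs, so the genotypes did not overlap, as in the 3.05% of compact regions above. The fold there was 2.95, 3.83 and 3.38 in the ancestral and 3.70, 2.97 and 3.27 in the derived dogs, which did overlap, and 1 dog had an *E2F1* peak.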

How the data were processed

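Peak lists of *ChIP-seq* for *H3K27ac* and *E2F1* from the pons of 6 dogs were used, 12 lists in all, and the 6 input libraries were not analysed here. After adapter trimming, the authors mapped reads to CanFam3.1 using bowtie, retained reads with several matches, collapsed duplicates by unique molecular identifier, and called peaks dog by dog with MACS2 2.2.0, in broad mode for *H3K27ac*. The deposited lists give a score from MACS2, which was not used. They also give the fold enrichment, a ratio the authors' caller computed against the local background and, for broad peaks, averaged over the region. Significance is deposited as −log10 of p and of q from the same caller. Nothing was normalized between dogs, so percentiles of fold and q were taken inside each list. The authors' removal of regions enriched in input and their spike-in scaling came after these lists.

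All deposited *H3K27ac* peaks on CFA1 to CFA38 were merged where they overlapped or touched. *E2F1* peaks with q below 0.0005 were kept, and an overlap of at least 1 bp counted. Coordinates are 1-based. Groups and replicate numbers came from the sample labels. Each dog was 1 replicate, and regions were never treated as replicates. Classes of region were compared within dogs with exact two-sided sign-flip tests over 64 assignments (smallest p 0.03125), and *E2F1* overlap between genotypes with an exact two-sided permutation test over 20 assignments, with Benjamini-Hochberg adjustment over the sign-flip tests. Of the 11 sign-flip tests, 6 were added after the data were seen. These are the tests of groups by *H3K27ac* fold, of neighbours, of the dog's own peaks, of regions of 5 dogs, of width and of summits per Mb. The compact regions, the width limit and the lists were chosen with earlier results of these data known.

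Named regions are the 3 with the smallest and the 3 with the largest summed edge ranges, the 3 most isolated, the 3 narrowest, the 5 with *E2F1* in all 6 dogs and the highest lowest q percentile, the 3 with the highest lowest *H3K27ac* fold percentile, those on either side of the limit, and any inside *GTF2I*, with its exons placed by the study's exon table. Alternatives were other thresholds on q, joining of peaks, width limits of 1 and 3 kb, CFAX, equal *E2F1* list lengths, and leaving out each dog. Merging, overlap, gaps and tests were checked on simulated data. Python 3.11.15 with numpy 2.4.6, pandas 2.3.3, scipy 1.17.1 and matplotlib 3.10.9 was used. The lists hold no read counts, so no counting error can be given.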

Additional observations from a re-analysis of the deposited data

Results flagged for a closer look

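CFAX was outside the comparisons above, and the same rule found 288 compact regions there, of 1328 regions with a peak in all 6 dogs (21.7%). Their median width was 1439.5 bp, and 98 of them (34.0%) overlapped an *E2F1* peak in at least 1 dog. All dogs were male, and levels on CFAX were not compared with those on the autosomes. Groups of 3 dogs are too small for the test of single outlying samples, and no comparison between classes of region had all ancestral dogs on one side of 0 and all derived dogs on the other.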

How the results depend on the processing

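Over all settings that kept the 6 dogs, *E2F1* overlap of compact minus longer regions stayed negative (-29.1 to -2.67 points) and that of compact regions minus those of 1 to 5 dogs stayed positive (2.08 to 13.7), each with an exact p of 0.03125. Of 86 planned values 72 kept direction and call, and of 70 added after the data were seen 63 did. Both counts include genotype comparisons, which could change direction but not call, since 3 dogs against 3 cannot give a p below 0.1. The number of compact regions was 2616 with *H3K27ac* q below 1e-05, 2280 with a limit of 1 kb and 16535 with 3 kb. The compact minus longer midpoint share turned to 0.571, 0.969 and 0.140 points under the same 3 settings. The near minus far difference turned to -0.327 with *E2F1* q below 1e-10, -0.336 with equal *E2F1* lists, -0.0155 with at least 0.5 of the *E2F1* peak inside and -1.68 with *H3K27ac* q below 1e-05. The central-part difference was -9.27 with *E2F1* q below 1e-10 (exact p = 0.0625), -0.528 with a limit of 1 kb and 0.501 with 3 kb. The neighbour difference was 4.94 with the stricter *E2F1* q and 5.74 with 1 kb, and that between *H3K27ac* groups was 13.0 with 1 kb (exact p = 0.0625 for all). The difference by width was -0.109 with the stricter *E2F1* q and 0.296 with equal lists, and up to 5.59 with all *E2F1* peaks. Summits per Mb differed by 3.29 with all *E2F1* peaks and 1.06 with 3 kb, and by 42.5 with *H3K27ac* q below 1e-05 and 27.1 with 1 kb. Derived minus ancestral *E2F1* overlap turned to 0.500 with all *E2F1* peaks. Beyond the settings' own construction, the cause was not tested.

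With 1 dog left out and the regions rebuilt from 5 dogs, the smallest possible sign-flip p is 0.0625, so no call could pass. Except for summits per Mb, where p was 0.0625 to 0.562, each comparison called with 6 dogs stayed at that smallest p. The compact regions numbered 9982 to 11936. The difference in *E2F1* overlap was -18.4 to -14.6 points to longer regions, 6.82 to 9.01 to regions of fewer dogs, 5.76 to 7.32 where the dog had its own peak and 4.42 to 6.07 to regions of all dogs but 1. It was 11.3 to 15.1 between *H3K27ac* groups, 5.01 to 7.14 by neighbour, 1.44 to 2.44 by width, and -0.120 to 0.507 for near minus far. The midpoint difference was -0.318 to 0.0461, that of the central part -4.08 to -2.61, and that of summits per Mb 1.77 (without ancestral replicate 2) to 5.15 (without derived replicate 2). By genotype, *E2F1* overlap differed by -6.11 (without derived replicate 2) to 1.08 (without derived replicate 1), and the fold percentile by -2.22 to 4.93, with -0.446 without derived replicate 1. Peak width differed by 7.17 to 52.7 bp and coverage by 0.674 to 3.27 points, lowest without ancestral replicate 2 and highest without ancestral replicate 1.

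Samples of the same replicate number and different genotype are different dogs, and their peak widths did not deviate together over the 8859 regions (correlations 0.0143, -0.144 and -0.0499), so the numbers do not pair them. With the replicate block the genotype differences kept their values by construction, -2.19 points for *E2F1* overlap, 25.7 bp, 0.952 and 1.75 points. The values for *H3K27ac* peak width, fold percentile and coverage are a description. With 3 pairs the exact p cannot go below 0.25, so this block could not call any difference.

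The lists give no depth. The *E2F1* lists hold 18947 to 63306 peaks, in the order of the overlap values. With equal lists, derived minus ancestral *E2F1* overlap was -1.20 points (exact p = 0.6).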
